A study of Mus musculus with 2 samples.

Results

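The 9 genes described here, Tcf7, Lef1, Satb1, Bach2, Foxo1, Foxp1, Id3, Eomes and Sox4, encode transcription factors linked to quiescence and stem-like potential in T cells. They were taken by symbol from the 32285 genes listed in both count matrices, and all 9 were found in both. They were followed in single-cell RNA sequencing of mouse splenic regulatory T cells (Tregs), CD4 T cells that restrain immune responses under the factor Foxp3. The CD25KO library came from mice of genotype CD25FL/FL-tdTomato+/+-Foxp3eGFPCretERT2+/+ and the CD25WT library from mice of genotype CD25WT/WT-tdTomato+/+-Foxp3eGFPCretERT2+/+. CD25 is the alpha chain of the interleukin-2 receptor, encoded by Il2ra. All mice carried the tdTomato reporter and a tamoxifen-activated Cre recombinase expressed with GFP from Foxp3, so recombination was limited to cells that expressed Foxp3 during treatment. Both groups received tamoxifen at 2 mg/kg by intraperitoneal injection for 5 days, and spleens were taken 10 days after induction. Each library pooled 2 spleens, and viable cells positive for CD4, GFP and tdTomato were sorted. The CD25KO cells alone were also gated on low CD25, so the deletion and the gate cannot be told apart. With 1 library per group there were no replicates, no difference between the groups was tested, and every interval is a 95% interval for counting error only.

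Tcf7 and Lef1 encode related HMG-box factors that bind the same DNA core, pair with beta-catenin or TLE co-repressors, and maintain naive and memory-like T cells. Foxo1 is held out of the nucleus by growth-factor and cytokine signalling and drives homing genes, Foxp1 restrains T cell activation, Bach2 represses effector genes, Satb1 organises chromatin, and Id3 inhibits E proteins. In Tregs these factors are known mainly from the resting, lymphoid-organ pool, whereas interleukin-2 signals through STAT factors, above all STAT5.

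Some promoter sequences of the factors carry a letter pattern for one of these pathways and are shown so that the genes can be read beside the signalling they are known for. RefSeq promoter windows (GRCm38.p6, 250 bases before to 50 after a start) were found for all 9 genes, 19 windows in all. The 3 patterns were searched on both strands, TTCNNNGAA for STAT5, CTTTGA for TCF/LEF factors and GTAAACA for FOXO factors. They do not overlap each other in the windows shown, and matches are in capitals. The STAT5 pattern was in 1 of the 19 windows, that of Bach2, and in 8.30% of 32851 windows of all genes. The TCF/LEF pattern was in 3 of the 19 windows, those of Lef1, Bach2 and Foxp1, and in 16.0% of all windows. The FOXO pattern was in 1 window, a start of Tcf7, and in 3.65% of all windows. Bach2 (chr4:32417185-32417484, plus strand, the 1 start listed, which lies inside the annotated gene) is shown because it was the factor furthest below the CD25WT level and holds a STAT5 match 140 bases before the start and a TCF/LEF match 93 bases before it.
Bach2: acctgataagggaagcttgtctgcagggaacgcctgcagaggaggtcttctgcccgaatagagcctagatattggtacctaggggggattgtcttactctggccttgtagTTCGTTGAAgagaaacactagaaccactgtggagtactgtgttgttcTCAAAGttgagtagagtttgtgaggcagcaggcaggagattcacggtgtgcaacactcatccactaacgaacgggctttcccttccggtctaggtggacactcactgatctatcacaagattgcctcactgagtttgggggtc
Lef1 (chr3:131156044-131156343, plus strand, the fourth of 4 listed starts) holds TCF/LEF matches 180 and 120 bases before that start.
Lef1: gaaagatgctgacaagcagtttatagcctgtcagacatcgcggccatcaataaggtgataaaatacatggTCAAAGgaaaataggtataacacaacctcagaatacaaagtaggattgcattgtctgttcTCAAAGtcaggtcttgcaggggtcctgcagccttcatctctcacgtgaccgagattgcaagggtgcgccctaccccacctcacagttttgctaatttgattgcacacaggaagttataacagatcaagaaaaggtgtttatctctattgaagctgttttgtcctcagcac
Tcf7 (chr11:52282546-52282845, minus strand, the second of 2 listed starts) holds its FOXO match just after that start.
Tcf7: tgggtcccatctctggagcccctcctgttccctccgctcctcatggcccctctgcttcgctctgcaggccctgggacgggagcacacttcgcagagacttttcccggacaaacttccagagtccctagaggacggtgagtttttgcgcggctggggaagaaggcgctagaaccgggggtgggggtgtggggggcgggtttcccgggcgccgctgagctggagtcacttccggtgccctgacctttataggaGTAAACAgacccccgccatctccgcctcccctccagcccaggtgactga
A match is a description of the letters and not a binding site.

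The CD25KO matrix gave 36986849 unique molecular identifiers (UMIs, each standing for 1 captured transcript) over 7530 barcodes, and the CD25WT matrix 36971834 over 6620. After filtering and removal of B-like and erythroid-like clusters, 6867 CD25KO cells with a median of 4153 UMIs and 6013 CD25WT cells with a median of 5240 UMIs remained as T-lineage cells. Cd3e was detected in 94.2% of the CD25KO and 93.5% of the CD25WT cells, Cd4 in 50.2% and 44.2%, and Foxp3 in only 10.0% and 16.0%. Ribosomal protein genes took 31.1% of UMIs in CD25KO and 39.6% in CD25WT. Il2ra was 32.7 CPM (UMIs of a gene scaled to a library total of 1000000) in CD25KO and 126 CPM in CD25WT. This is no check of the deletion, since the sort acted on the product of Il2ra. The labels do not give the deleted part, and 3' tags outside it may still be counted. The libraries shared 20 barcodes among the kept T-lineage cells, and leaving those cells out moved no member ratio by more than counting error.

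In all, 5 of the 9 factors, Lef1, Satb1, Bach2, Foxp1 and Sox4, were at least 1.5-fold lower in the CD25KO library than in the CD25WT library, and 0 were at least 1.5-fold higher. Of 8733 genes whose mean reached 5 CPM, 1.91% were that much lower and 12.2% that much higher. Eomes did not reach this minimum, so 8 of the 9 factors are among those genes. The median log2 ratio of CD25KO over CD25WT was -0.61 over the 9 factors, against 0.21 over all genes tested. At a 2-fold limit, 2 of the 9 were lower, Satb1 and Bach2, against 0.756% of genes lower and 4.56% higher. With TMM scaling (the trimmed mean of M values), 593 genes were higher and 362 lower, in place of 1063 and 167, and the median over all genes was -0.02. The 5 factors were lower under that scaling too.

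**Figure D1:**
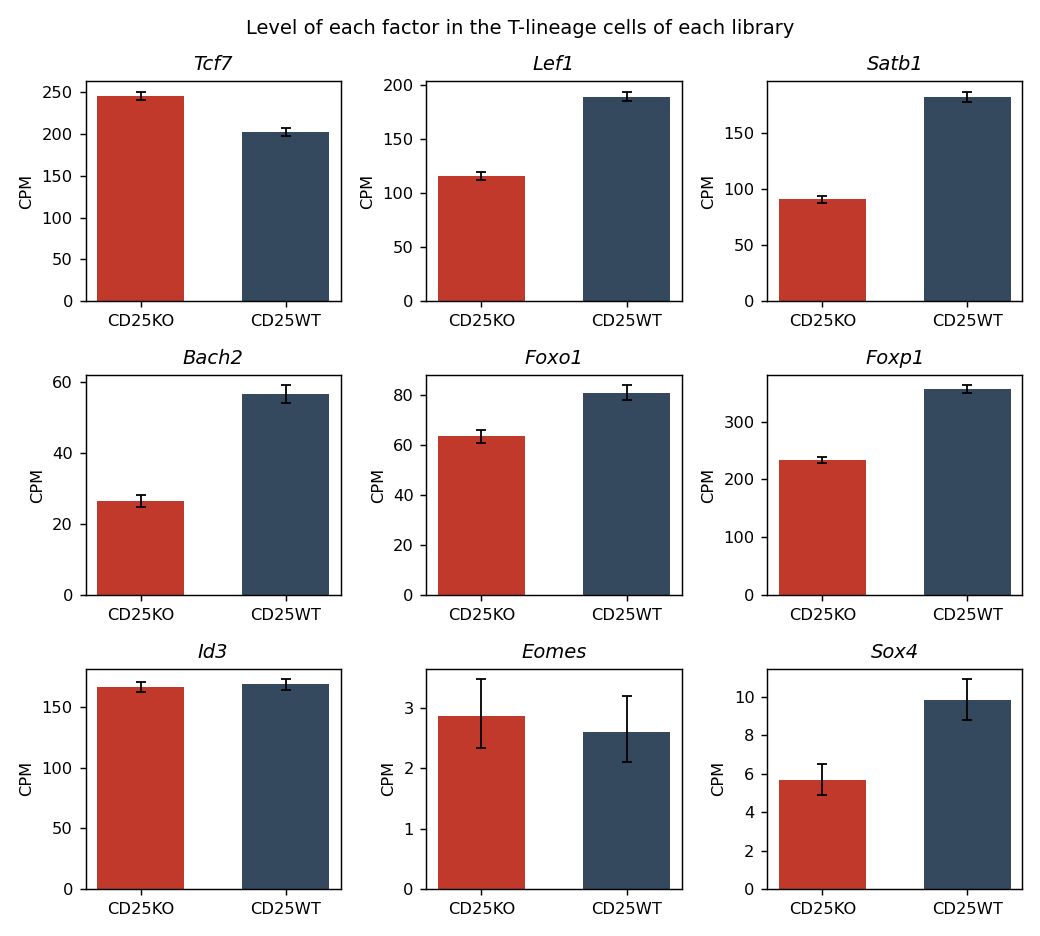
Bars show the level of each factor in CPM, summed over the T-lineage cells of the CD25KO and CD25WT libraries, with exact Poisson 95% intervals and an axis of its own for each gene. Lef1, Satb1, Bach2, Foxp1 and Sox4 stood lower in CD25KO, Tcf7 stood higher at 245 against 202 CPM (though not among cells with a Foxp3 UMI, at a log2 ratio of -0.03), and Id3 and Eomes had overlapping intervals.

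The HMG-box relatives Tcf7 and Lef1 differed in direction. Tcf7 was 245 CPM in CD25KO (95% interval 240 to 250) and 202 CPM in CD25WT (197 to 206), from 8648 and 7027 UMIs. Its log2 ratio of 0.28 (0.24 to 0.33) was close to the median of all genes, and it came to 0.05 with TMM factors and -0.03 among cells with a Foxp3 UMI. Lef1 was 116 CPM in CD25KO (113 to 120) and 189 CPM in CD25WT (185 to 194), a log2 ratio of -0.71 (-0.76 to -0.65). Sox4, a SoxC factor of the wider HMG-box family, was rare, at 5.67 CPM in CD25KO and 9.84 CPM in CD25WT, a log2 ratio of -0.79 (-1.05 to -0.54) from 200 and 343 UMIs. The intervals of the 2 libraries did not overlap for any of these 3 genes, and only Tcf7 was the higher in CD25KO.

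The widest gaps were in the chromatin organiser and the repressor. Satb1 was 90.9 CPM in CD25KO and 183 CPM in CD25WT, a log2 ratio of -1.01 (-1.07 to -0.94) from 3208 and 6367 UMIs. Bach2, which competes with AP-1 factors at effector genes, was 26.5 CPM in CD25KO and 56.6 CPM in CD25WT, a log2 ratio of -1.10 (-1.21 to -0.98). Neither pair of intervals overlapped. A pair of transcripts annotated within Bach2 were counted apart from it, Bach2it1 with 20 UMIs in CD25KO and 62 in CD25WT, and the antisense Bach2os with 2 and 17.

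Of the forkhead factors, Foxp1 was 234 CPM in CD25KO and 356 CPM in CD25WT, a log2 ratio of -0.61 (-0.65 to -0.57). Foxo1 was 63.5 CPM in CD25KO and 80.8 CPM in CD25WT, a log2 ratio of -0.35 (-0.43 to -0.27) that did not reach 1.5-fold. Foxp1 passed the limit only narrowly, and was at -0.48 against the CD25WT cells that had no Il2ra UMI. Id3, which blocks E protein activity, was 167 CPM in CD25KO and 169 CPM in CD25WT, a log2 ratio of -0.02 (-0.07 to 0.03). Eomes, a T-box factor of effector and memory CD8 T cells, was 2.86 CPM in CD25KO and 2.61 CPM in CD25WT from 101 and 91 UMIs, so that no difference was detectable at this depth (0.13, -0.29 to 0.56).

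Detection per cell was compared after thinning every cell to 2000 UMIs, which left out 357 CD25KO and 67 CD25WT cells. Lef1 was then detected in 19.3% of CD25KO and 29.3% of CD25WT cells, Satb1 in 14.3% and 26.0%, and Foxp1 in 35.6% and 45.8%. Tcf7 was detected in 34.7% of CD25KO and 31.4% of CD25WT cells, and Id3 in 22.4% and 21.8%. None of the 9 factors was detected in 23.5% of the thinned CD25KO and 13.1% of the thinned CD25WT cells, and the mean number detected was 1.44 and 1.80. Without thinning, Tcf7 was detected in 53.8% of CD25KO and 58.2% of CD25WT cells. Free RNA gives UMIs in any droplet, and 42 thinned erythroid-like cells (median 8108 UMIs before thinning), which should lack T cell factors, had Tcf7 in 14.3%, Lef1 in 2.38%, Satb1 in 9.52% and Bach2 in 4.76%. Bach2 was detected in 5.21% of CD25KO and 10.0% of CD25WT cells, both within the interval of that background (0.582 to 16.2). The shares of Id3 in both libraries, and those of Satb1 (2.66 to 22.6) and Foxo1 in CD25KO, also lay within their background intervals. Those of Tcf7, Lef1 and Foxp1 were above theirs in both. With 42 cells, the background intervals of Eomes (0 to 8.41) and Sox4 (0.0603 to 12.6) were too wide to judge such rare genes. Eomes had 0 UMIs in the erythroid-like cells. Whether those cells make any of the factors themselves was not tested. How far free RNA bears on the ratios was not tested.

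Markers of other lineages stood at different levels in the T-lineage cells of the libraries. The 9 B cell markers summed to 643 CPM in CD25KO and 276 CPM in CD25WT, with 6 of 9 higher in CD25KO, led by Ighm, Cd74 and Igkc. The 5 natural killer markers summed to 142 and 33.0 CPM, nearly all Nkg7, with Klra8 at 0 in both. Nkg7 was also among the leading genes of cluster 9, a T-lineage cluster described below as effector-like. The 6 erythroid markers summed to 107 CPM in CD25KO and 201 CPM in CD25WT, the 7 myeloid markers to 147 and 108 CPM, and the 2 CD8 markers to 13.6 and 11.6 CPM. With cells of other lineages put back, the same number of factors, 5, was lower. The part of these markers in the member ratios was otherwise not tested.

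Treg states were found by clustering both libraries together without the 9 factors, so that none of them placed a cell. Central-like cells were 4.69% of CD25KO (322 cells) and 48.9% of CD25WT cells (2939 cells), in 2 clusters, of which cluster 0 was led by homing and resting genes such as Ccr7 and Igfbp4 and cluster 6 had 1 central marker, Bcl2, among its 10 leading genes. Effector-like cells, led by genes such as Klrg1, Ccl5 and S100a4, were 16.7% of CD25KO and 2.73% of CD25WT cells. Follicular regulatory-like cells, led by Sostdc1 and with Il21 and Pdcd1 among their leading genes, were 12.2% and 4.11%. Their leading genes also held Il4, as well as Egr1, Egr2, Egr3 and Nr4a1, the last 4 being markers of the recently stimulated-like state. Foxp3 in follicular regulatory-like cells was 16.8 CPM in CD25KO and 19.0 CPM in CD25WT, against 21.7 and 34.5 CPM over all T-lineage cells. The name rests on the marker list alone. Interferon-response-like cells were 6.47% and 6.34%. Unnamed clusters held 55.5% of CD25KO and 35.4% of CD25WT cells and are given by number, since no marker list named them. The CD25 gate and the depth gap can set these shares. The 9 factors vary with the genes clustered, so differences between states are descriptions, and none was tested.

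Lef1 and Satb1 were both highest in central-like cells, in CD25KO as in CD25WT. Lef1 was 341 CPM in CD25KO central-like cells and 258 CPM in CD25WT central-like cells, then came recently stimulated-like (236 and 240 CPM) and interferon-response-like cells (177 and 225 CPM). In CD25KO neighbours among these 3 states were apart beyond counting error, and in CD25WT they were not. Still, in CD25WT the intervals of central-like (251 to 266 CPM) and interferon-response-like cells (206 to 246 CPM) did not overlap. The lowest were cluster 10 in CD25KO (67.4 CPM) and follicular regulatory-like cells in CD25WT (62.7 CPM). Satb1 was 382 CPM in CD25KO and 276 CPM in CD25WT central-like cells, and lowest in follicular regulatory-like cells at 21.1 and 16.9 CPM. The follicular over central log2 ratio of Satb1 was -4.18 (-4.51 to -3.86) in CD25KO and -4.03 (-4.67 to -3.45) in CD25WT. That of Lef1 was -1.92 in CD25KO and -2.04 in CD25WT. Of all genes tested, 8.42% in CD25KO and 7.21% in CD25WT were at least 1.5-fold lower in follicular regulatory-like than in central-like cells, and 36.2% and 39.8% higher.

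Tcf7 and Id3 had another order, in which follicular regulatory-like cells were high and effector-like cells low. Tcf7 was 308 CPM in CD25KO and 299 CPM in CD25WT follicular regulatory-like cells, and 70.0 and 95.4 CPM in effector-like cells, the lowest state in both libraries. In CD25KO, 7 states from cluster 1 (336 CPM) to cluster 3 (280 CPM) followed each other with no neighbours apart beyond counting error. The intervals of those end states (320 to 353 and 262 to 299 CPM) did not overlap. In CD25WT central-like cells Tcf7 was 180 CPM, eighth of the 11 states. Id3, a factor that restrains the follicular helper fate in mice, was 269 CPM in CD25KO and 326 CPM in CD25WT follicular regulatory-like cells. It was above those only in the few recently stimulated-like cells, at 441 CPM in CD25KO (77 cells) and 616 CPM in CD25WT (75 cells). Both states had Egr1, Egr2, Egr3 and Nr4a1 among their leading genes, and whether Id3 goes with these was not tested. Effector-like cells had the lowest Id3 in both libraries, 46.9 CPM in CD25KO and 43.3 CPM in CD25WT.

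**Figure D2:**
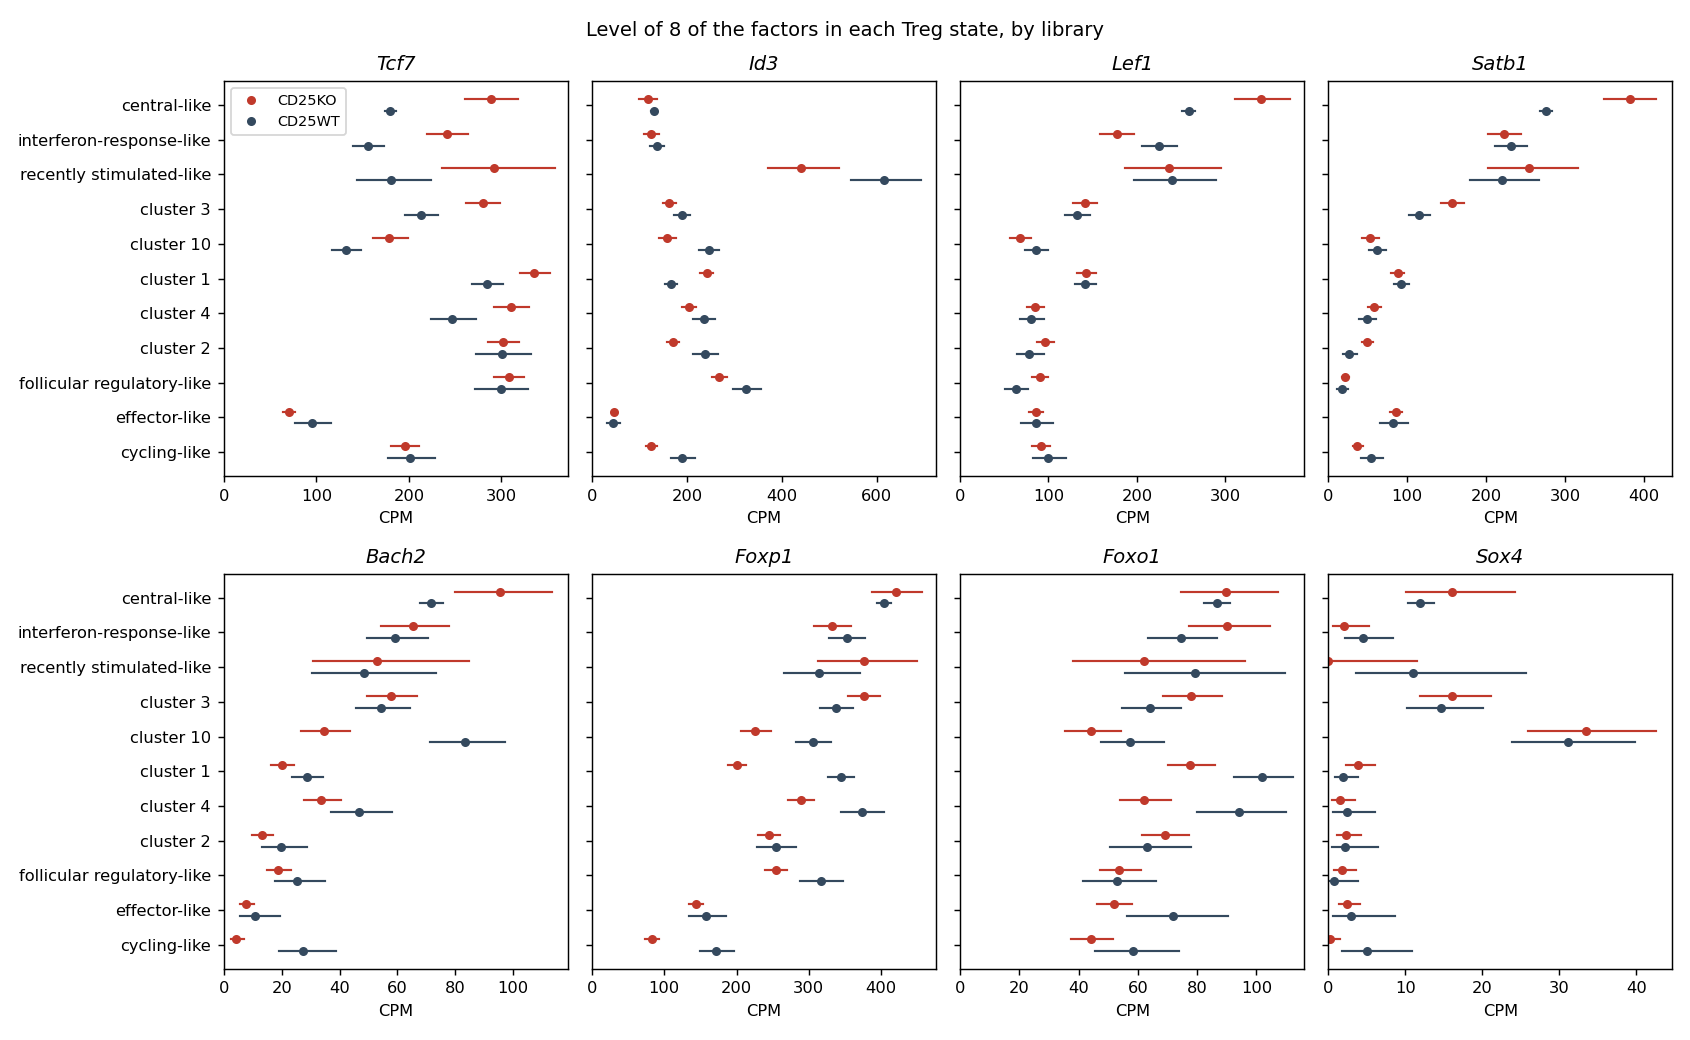
Points show the CPM of 8 of the factors in each Treg state, CD25KO above CD25WT, with exact Poisson 95% intervals. Lef1 and Satb1 are highest in central-like cells, Tcf7 is lowest in effector-like cells (70.0 and 95.4 CPM), and Sox4 is highest in cluster 10 (33.5 and 31.1 CPM).

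Bach2 and Foxp1 were high in the central-like cells and low in the effector-like and cycling-like cells. Bach2 was 95.6 CPM in CD25KO and 71.7 CPM in CD25WT central-like cells, and 7.81 and 10.8 CPM in effector-like cells, the effector-like values from 47 and 11 UMIs. Its effector over central log2 ratio was -3.61 (-4.13 to -3.12) in CD25KO and -2.73 (-3.73 to -1.88) in CD25WT, the largest of the factors measured in both. Foxp1 was 421 CPM in CD25KO and 404 CPM in CD25WT central-like cells, and 144 and 158 CPM in effector-like cells. In cycling-like cells Foxp1 was 82.4 CPM in CD25KO and 172 CPM in CD25WT, and Bach2 4.19 and 27.5 CPM, from 227 and 78 cells. Of all genes tested, 8.21% in CD25KO and 7.82% in CD25WT were at least 1.5-fold lower in effector-like than in central-like cells, and 29.3% and 28.5% higher.

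Foxo1 varied least among the 7 factors that were well above the minimum level. It ranged over the states from 44.1 CPM (cluster 10 and cycling-like cells) to 90.0 CPM (interferon-response-like cells) in CD25KO, and from 52.8 CPM (follicular regulatory-like cells) to 102 CPM (cluster 1) in CD25WT. No neighbouring states in its order were apart beyond counting error in either library, but states further apart in the order were. In CD25KO, interferon-response-like (77.2 to 104 CPM) and cycling-like cells (37.5 to 51.6 CPM) had intervals that did not overlap. The same held in CD25WT for cluster 1 (92.4 to 112 CPM) and follicular regulatory-like cells (41.6 to 66.2 CPM).

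By CPM, Eomes and Sox4 were both highest in cluster 10 of both libraries. In that cluster, led by the growth genes Srm and Mettl1 and by Tnfrsf9, Eomes was 26.9 CPM in CD25KO and 22.2 CPM in CD25WT, and Sox4 was 33.5 and 31.1 CPM. It held 53 of the 101 Eomes UMIs of CD25KO and 45 of the 91 of CD25WT, in 12 and 9 cells with up to 11 and 19 UMIs in a single cell. Next for Sox4 came central-like cells (16.1 CPM in CD25KO, 12.0 CPM in CD25WT) and cluster 3 (16.0 and 14.6 CPM), which were not apart from each other beyond counting error in either library. The Sox4 UMIs of cluster 10 were 66 in 15 CD25KO cells and 63 in 22 CD25WT cells. After thinning, Sox4 was detected in 2.76% of CD25KO cluster 10 cells and 2.57% of CD25KO central-like cells. In CD25WT it was detected in 4.02% of cluster 10 and 2.98% of cluster 3 cells. The intervals of these shares overlapped in both libraries.

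Within states, the direction of several factors differed from that of the whole libraries. In central-like cells Tcf7 was 288 CPM in CD25KO and 180 CPM in CD25WT, a log2 ratio of 0.68 (0.52 to 0.83) and the 1 factor of 8 measured there that was at least 1.5-fold apart. In those cells 8.66% of genes were that much higher and 4.95% that much lower in CD25KO, with a median over all genes of 0.08. Lef1 (0.40, 0.26 to 0.54), Satb1 (0.47, 0.33 to 0.60) and Bach2 (0.42, 0.14 to 0.68) were also above 0 there. Foxp1 (0.06), Foxo1 (0.05) and Id3 (-0.15) had intervals across 0. The central-like cells were 2 clusters of unlike makeup: cluster 0 held 283 CD25KO and 1903 CD25WT cells, and cluster 6, led by Lrrc32, Myc and the interleukin-2 response genes Socs2 and Cish, held 39 and 1036. In cluster 0 alone Lef1 was at 0.31 (0.16 to 0.46), Satb1 at 0.30 (0.16 to 0.44) and Tcf7 at 0.46 (0.29 to 0.62), which is under 1.5-fold. In cluster 6, with few CD25KO cells, Tcf7 was at 1.23 (0.83 to 1.60) on 61 CD25KO UMIs. Lef1 (-0.01) and Satb1 (0.33) had intervals across 0 there. So the 1.5-fold call of Tcf7 in central-like cells was made on the 2 clusters joined.

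These central-like values depend on how the cells are chosen. When thinned cells were taken by at least 2 UMIs of the central markers and none of the effector markers, 1684 CD25KO and 3156 CD25WT cells qualified, of which 14.0% and 67.8% were in the central-like clusters. With their thinned UMIs, Lef1 was lower in CD25KO (-0.49, -0.63 to -0.35), as were Satb1 (-0.57, -0.71 to -0.43) and Bach2 (-0.32, -0.57 to -0.07), and Tcf7 was above 0 (0.50, 0.38 to 0.63). With all UMIs of the same cells Lef1 was at -0.40 (-0.49 to -0.31), Satb1 at -0.53 (-0.63 to -0.44), Bach2 at -0.37 (-0.54 to -0.20) and Tcf7 at 0.63 (0.55 to 0.70). In the clusters, thinning left Lef1 at 0.39 (0.18 to 0.59), Satb1 at 0.52 (0.32 to 0.71) and Tcf7 at 0.55 (0.32 to 0.79), while Bach2, at 0.17 (-0.27 to 0.59), then had an interval across 0.

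In effector-like cells Tcf7 and Foxo1 were lower in CD25KO, with log2 ratios of -0.45 (-0.77 to -0.11) and -0.47 (-0.84 to -0.08), while Lef1 (0.00), Satb1 (0.07), Id3 (0.12) and Foxp1 (-0.14) had intervals across 0. Most CD25KO effector-like cells were in cluster 8 (730, against 54 of CD25WT) and most CD25WT ones in cluster 9 (420 of CD25KO against 110). Cluster 8 is below the minimum of 100 cells used for states, and its CD25WT sums were only 32 Tcf7, 24 Foxo1 and 25 Foxp1 UMIs. Tcf7 was at -1.02 (-1.57 to -0.44) in cluster 8 and -0.16 (-0.56 to 0.26) in cluster 9. Foxo1 was at -1.02 (-1.65 to -0.34) and -0.20 (-0.67 to 0.29) in the same clusters, and Foxp1 at 0.59 (0.01 to 1.23) and -0.42 (-0.71 to -0.13). Satb1 and Foxp1 also moved with the clustering, with Satb1 at 1.27 at a finer resolution and Foxp1 at -0.82 at a coarser one. In that state 0 of the 7 factors above the minimum level were 1.5-fold apart, against 14.1% of genes higher and 6.93% lower. In follicular regulatory-like cells Lef1 was higher (0.52, 0.19 to 0.87), Tcf7 was at 0.04 (-0.12 to 0.20), and Id3 (-0.28, -0.43 to -0.12) and Foxp1 (-0.32, -0.48 to -0.16) were lower. Only Eomes passed 1.5-fold there (-1.96, -3.19 to -0.77), lower in CD25KO on 12 UMIs against 15 in CD25WT. Those UMIs came from 2 cells in each library, with 11 of the 12 and 10 of the 15 in 1 cell, so its interval, which takes UMIs as independent, is too narrow. In that state 7.52% of genes were that much higher and 5.55% lower. In interferon-response-like cells Tcf7 was at 0.63 (0.42 to 0.83), the 1 of 7 factors past 1.5-fold, where 14.1% of genes were higher and 4.17% lower. Over the 9 states with at least 100 cells in both libraries, Tcf7 was above 0 beyond counting error in 6 and below in 1, the effector-like state. Foxp1 was below 0 in 4 and above in 1, Id3 below in 5 and above in 1, Bach2 below in 3 and above in 1, and Foxo1 below in 3 and above in 0. Satb1, lower over the whole library, was above 0 in 3 and below in 0, and Lef1 was above in 2 and below in 2. The median of all genes in these states ran from 0.015 to 0.147, and the same counts over all genes were not made.

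The unnamed clusters held gaps of their own. In cluster 1, led by Il18r1, Axin2 and Rora, Foxp1 was 200 CPM in CD25KO and 344 CPM in CD25WT (-0.78, -0.90 to -0.66). In the same cluster Id3 was 242 CPM in CD25KO and 167 CPM in CD25WT (0.54, 0.40 to 0.67). In cluster 10 Bach2 was 34.5 CPM in CD25KO and 83.5 CPM in CD25WT (-1.28, -1.70 to -0.86), from 68 and 169 UMIs. Past 1.5-fold stood 1 of 7 factors in cluster 1, Foxp1, where 3.69% of all genes were that much lower and 6.02% higher. In cluster 10 they were 2 of 9, Bach2 and Id3 (-0.64), both lower, against 5.82% of genes lower and 12.6% higher. In cluster 2, Satb1 was higher (0.90, 0.39 to 1.46) and Bach2 lower (-0.60, -1.28 to 0.12), against 7.35% of genes higher and 5.47% lower. In cluster 4, Foxo1 was lower (-0.60, -0.91 to -0.29), against 4.87% of genes lower and 7.62% higher. In cluster 3, 0 of 8 factors passed, against 3.07% of genes lower and 10.6% higher.

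When every state was weighted by its CD25WT share, in the one library as in the other, the 5 factors were no longer 1.5-fold lower in CD25KO. The standardised log2 ratio was 0.27 for Lef1, 0.38 for Satb1, 0.19 for Bach2, 0.29 for Sox4 and -0.08 for Foxp1. Of the 9 factors 0 were then at least 1.5-fold lower, against 1.17% of all genes lower and 3.6% higher, with a median over all genes of 0.08. The central-like state, which supplied 48.6% of all CD25WT UMIs, supplied 73.5% of the Satb1, 66.4% of the Lef1 and 61.5% of the Bach2 UMIs of that library. In CD25KO it supplied 3.88% of all UMIs, 16.3% of the Satb1, 11.4% of the Lef1 and 14.0% of the Bach2 UMIs. Tcf7 was at 0.46 after standardising, the highest of the 9. This standardised value gives 322 CD25KO central-like cells the weight of 48.9% of the library. It does not equalise the mix of clusters 0 and 6 within that state.

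**Figure D3:**
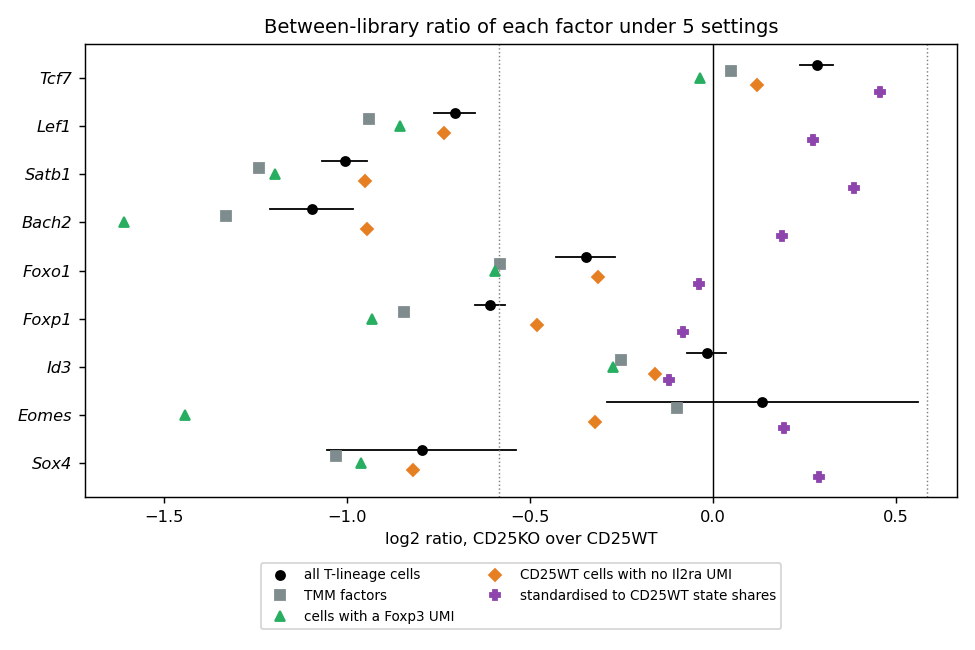
Points show the log2 ratio of CD25KO over CD25WT of each factor over all T-lineage cells (black, with its exact 95% counting interval) and under 4 other settings, and dotted lines mark 1.5-fold. Lef1, Satb1, Bach2 and Sox4 lie below 0 under 4 of the 5 settings and above 0, between 0.19 and 0.38, when states are given the CD25WT shares.

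Tcf7 and Lef1 were also counted within the same cells. In thinned cells, 27.1% of CD25KO (26.1 to 28.2) and 21.5% of CD25WT (20.5 to 22.6) had a Tcf7 UMI and no Lef1 UMI. A Lef1 UMI with no Tcf7 UMI was found in 11.7% of CD25KO (10.9 to 12.5) and 19.4% of CD25WT cells (18.4 to 20.4), and both in 7.60% and 9.89%. Follicular regulatory-like cells of the libraries were alike in this, with Tcf7 alone in 32.8% of CD25KO and 35.0% of CD25WT and both in 7.71% and 7.72%. In central-like cells both were found in 21.2% of CD25KO (16.8 to 26.2) and 12.9% of CD25WT cells (11.7 to 14.2). Effector-like cells had neither in 77.3% and 69.8%. A missing UMI in a thinned cell does not show that the gene was off.

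**Figure D4:**
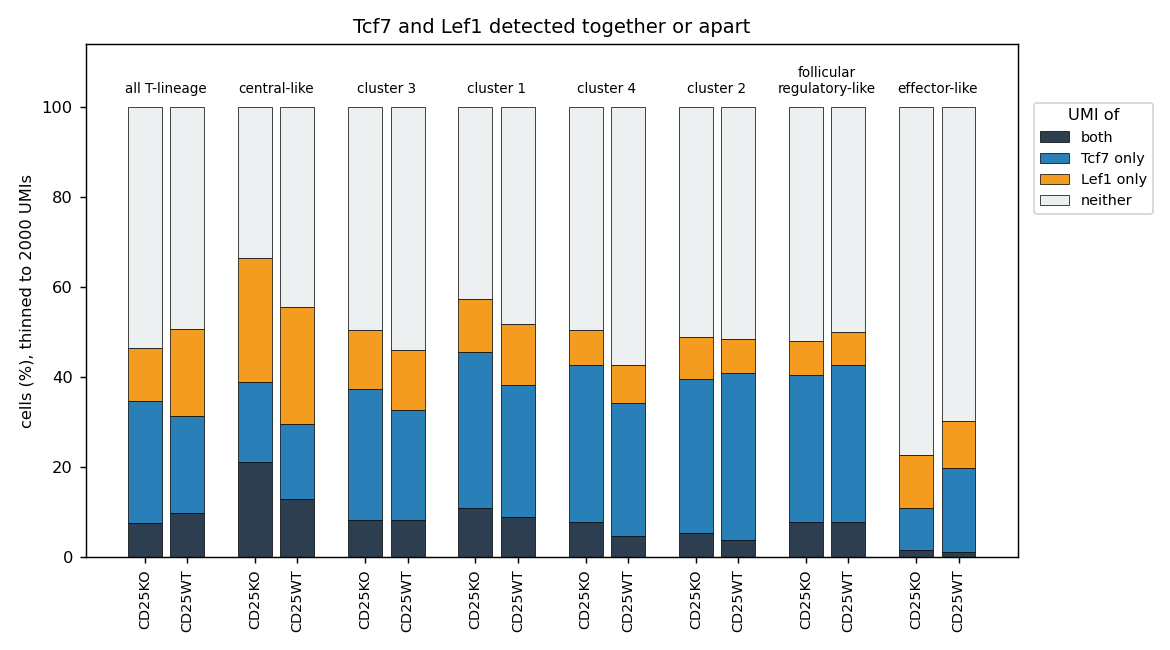
Stacked bars give the percentage of cells, thinned to 2000 UMIs, with a UMI of both Tcf7 and Lef1, of 1 of them or of neither, in all T-lineage cells and in 7 states, CD25KO left of CD25WT. Over all cells Tcf7 alone takes 27.1% in CD25KO and 21.5% in CD25WT, and Lef1 alone 11.7% and 19.4%.

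Outside the central-like state, cells with a UMI of Lef1, Satb1, Bach2 or Foxp1 had higher levels of the other 3, though in CD25WT the intervals of Lef1 with Foxp1 (0.10, -0.06 to 0.26) and Bach2 with Lef1 (0.26, -0.13 to 0.64) were among those across 0. There, cells with a Lef1 UMI had more Satb1 than cells without, by a log2 ratio of 1.08 (0.88 to 1.28) in CD25KO and 1.02 in CD25WT. Cells with a Bach2 UMI had more Satb1 (1.07 in CD25KO, 0.58 in CD25WT) and more Foxp1 (0.78 and 0.55). Cells with a Tcf7 UMI had more Id3, by 0.48 (0.35 to 0.60) in CD25KO and 0.22 (0.06 to 0.39) in CD25WT, but Satb1 by only 0.20 and 0.09. Cells with an Id3 UMI had less Satb1, a log2 ratio of -0.27 in CD25KO and -0.54 in CD25WT. In CD25KO, the effector gene S100a4 was lower in cells with a Bach2 UMI (-2.43, -2.83 to -2.05) and with a Tcf7 UMI (-1.05, -1.14 to -0.96), and was at -0.21 (-0.31 to -0.12) in cells with a Lef1 UMI. In CD25WT the same ratios were -3.51, -1.01 and -0.63. These are descriptions over cells of 1 library, which share depth and free RNA.

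**Figure D5:**
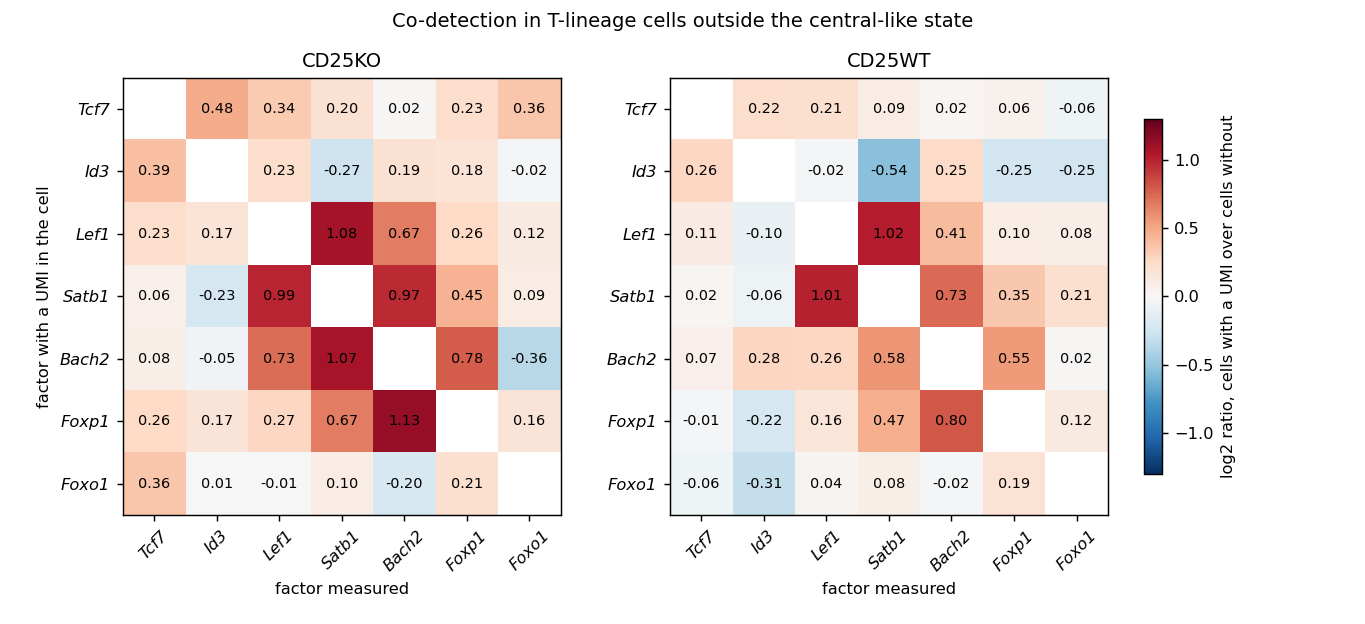
Each square gives the log2 ratio of the level of the column's factor in cells with a UMI of the row's factor over cells without, in thinned cells outside the central-like state, for CD25KO (left) and CD25WT (right). The squares among Lef1, Satb1, Bach2 and Foxp1 are above 0 in both libraries, such as Lef1 with Satb1 (1.08 and 1.02), and Tcf7 with Satb1 is at 0.20 and 0.09.

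Likeness was also measured over the 25 units of cluster and library with at least 50 cells, where levels were compared as log2(CPM + 1) by Pearson's r. Lef1 was most like Satb1 (0.90), then Txk, a T cell kinase (0.89), and Klf7 (0.87). Satb1 was most like Lef1, Txk (0.90) and Ly6c1 (0.88). Bach2 was most like Foxp1 (0.86), Cd2ap (0.86) and Ms4a4c (0.85), and Foxp1 most like Stambpl1 (0.86), Bach2 and Snhg12 (0.82). Tcf7 was most like Aff3 (0.83), Asap1 (0.80) and Gtf2i (0.80), with Lef1 at 0.18 and Id3 at 0.70. Id3 was most like Tnf (0.81), Nab2 (0.78) and Il6st (0.77), and Foxo1 most like Tbxa2r (0.80), Pdk1 (0.79) and Kif1b (0.78). Eomes was most like Llph (0.80), Nop10 (0.79) and Zfp593 (0.77), though with Spearman coefficients of only 0.40, 0.63 and 0.46, and Sox4 most like Cct4 (0.76), Snhg1 (0.74) and Rack1 (0.72). The units share 2 libraries and are not independent.

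Cells were also set apart within each library by an Il2ra UMI, so that both sides came from the same sort. CD25WT cells with one had less Tcf7, 167 CPM against 226 CPM in CD25WT cells without (-0.44, -0.51 to -0.37), and less Id3, 143 against 186 CPM (-0.38, -0.46 to -0.30). They had more Bach2, 64.8 against 51.0 CPM (0.35, 0.22 to 0.47), and more Foxp1, 400.1 against 326 CPM (0.29, 0.24 to 0.35). Lef1 (-0.07) and Satb1 (0.13) were closer to the median of all genes, -0.05. The sides differed in their states. Central-like cells were 58.6% of CD25WT cells with an Il2ra UMI and 43.6% of those without, and cluster 2, one of the states of CD25WT with the most Tcf7 (301 CPM), was 0.760% and 7.80%. Within CD25WT central-like cells Tcf7 was 152 CPM with an Il2ra UMI and 205 CPM without (-0.44, -0.54 to -0.33), Id3 was at -0.14 (-0.26 to -0.02), Foxp1 at 0.10 (0.03 to 0.17) and Bach2 at 0.04 (-0.12 to 0.21). There Lef1 (-0.28, -0.36 to -0.19) and Satb1 (-0.32, -0.41 to -0.24) were also lower with an Il2ra UMI. These values were not thinned, and central-like cells join clusters 0 and 6, whose mix on each side is not given here. In CD25WT, cluster 6 was below cluster 0 for Tcf7 (142 against 205 CPM), Lef1 (208 against 292 CPM) and Satb1 (199 against 327 CPM). Over all T-lineage cells of CD25KO the directions were the same for Tcf7 (-0.47), Id3 (-0.76), Bach2 (0.48) and Foxp1 (0.25). Cells with an Il2ra UMI were deeper (median 6108 against 4823 UMIs in CD25WT, 4562.5 against 4116 in CD25KO), and after thinning Tcf7 was at -0.36 (-0.52 to -0.19) in CD25WT and -0.51 (-0.76 to -0.27) in CD25KO. Id3 then stayed below 0 and Foxp1 above 0 in both libraries. Thinned Bach2 had an interval across 0 in CD25WT (0.24, -0.04 to 0.52) and was at 0.68 (0.16 to 1.17) in CD25KO. Thinned Sox4 in CD25KO was at 0.56 (-0.94 to 1.77). In CD25WT 0 factors above the minimum level passed 1.5-fold, against 1.37% of genes lower and 0.971% higher. In CD25KO Id3 was past it, and Sox4 was higher (0.78, 0.26 to 1.27), against 1.53% of genes lower and 2.55% higher.

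Genes linked to the factors were followed as lists. Of all genes tested, 1.91% were at least 1.5-fold lower and 12.2% higher in CD25KO, and after standardising 1.17% and 3.6%. Of 6 homing and survival genes linked to Foxo1 and its target Klf2, 4 were at least 1.5-fold lower in CD25KO and 0 higher, with a median log2 ratio of -0.89. Among these were Bcl2 (-1.34), Ccr7 (-1.13) and S1pr1 (-0.65), and all 6 are also markers of the central-like state. After standardising the median was -0.09, and Bcl2, a survival gene, stayed lower at -0.80. Of 10 quiescence regulators that are not among the factors, 4 were lower, Tsc22d3 (-1.39), Ddit4 (-1.10), Pik3ip1 (-1.03) and Zfp36l2 (-0.65), and 0 higher, with a median of -0.14. Of these, 3 were still lower after standardising, Zfp36l2 (-0.72), Ddit4 (-0.71) and Tsc22d3 (-0.62), while Pik3ip1, an inhibitor of PI3 kinase, was at -0.05.

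Among the partners of Tcf7 and Lef1, 10 of 12 were above the minimum level and 0 of them passed 1.5-fold in either direction. Of all genes tested, 1.91% were that much lower and 12.2% higher. The median of the list was 0.24, against 0.21 over all genes tested. The co-repressor genes Tle5 (0.49), Tle4 (0.44) and Tle3 (0.43) and the beta-catenin cofactor gene Pygo2 (0.34) led that list. Among the E and ID proteins, 3 of 4 were measured. Id2, the relative of Id3 that marks effector T cells, was 231 CPM in CD25KO and 83.6 CPM in CD25WT (1.47, 1.41 to 1.53), while the E protein genes Tcf12 (0.22) and Tcf3 (0.01) did not pass 1.5-fold. The Id2 ratio was 0.24 after standardising.

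Effector transcription factors stood higher in CD25KO. All of the 10 measured were higher in CD25KO by 1.5-fold or more, against 12.2% of all genes tested, and their median log2 ratio was 1.61. Bhlhe40 (2.26), Tbx21 (2.07), Prdm1 (1.83), which encodes Blimp, and Maf (1.65) led them. After standardising 5 of 10 passed with a median of 0.52, against 3.6% of all genes higher. Of the relatives of the 9 factors, 6 of 15 were measured. Tbx21, the T-box relative of Eomes, was higher (2.07) and Foxp3, the forkhead relative of Foxp1, lower at 21.7 CPM in CD25KO and 34.5 CPM in CD25WT (-0.67, -0.80 to -0.54). Foxo3 (-0.38) and Foxo4 (0.40) did not pass 1.5-fold.

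In genome order on mm10 (GENCODE M21) the factors lie at chr3:52268336-52353221 (Foxo1), chr3:131110471-131224356 (Lef1), chr4:32238804-32586108 (Bach2), chr4:136143497-136145755 (Id3), chr6:98925338-99522721 (Foxp1), chr9:118478212-118486132 (Eomes), chr11:52252371-52283014 (Tcf7), chr13:28948919-28953713 (Sox4) and chr17:51736187-51833290 (Satb1). Of the 9, 6 overlap another gene of the count matrices, and no source used here gives the counting rule for such reads. The largest of these overlaps by UMIs was an antisense transcript at Lef1, with 146 UMIs in CD25KO and 135 in CD25WT beside 4118 and 6628 of Lef1 in all kept cells.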

How the data were processed

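Per the labels' protocols, sorted splenic Tregs were made into 10x Chromium 3' libraries. The matrices deposited by the authors hold raw UMI counts for each gene and barcode. Per the file headers they come from Cell Ranger 6.0.0, on genome build mm10 per the submitters' processing notes. The 9 factors, the gene lists, the markers and the alternatives were chosen with earlier results of these data known.

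Cells under 500 detected genes or over 10% mitochondrial UMIs were removed, 578 CD25KO (7.68%) and 510 CD25WT barcodes (7.70%). Both libraries were clustered together with Scanpy 1.11.5 (2000 variable genes, 30 components, 15 neighbours, Leiden resolution 1, leidenalg 0.10.2), with the 9 factors, Il2ra, receptor segments, ribosomal, mitochondrial, haemoglobin, Xist and Y-linked genes excluded from clustering. Marker lists gave clusters their "-like" names. Scrublet called 0 CD25KO and 1 CD25WT doublets, which was taken as a failure of the caller, so doublets remain, and removing the 387 and 299 cells of highest score was an alternative.

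UMIs were summed per library, or per library and state, and scaled to CPM with all genes in the total. Intervals are exact Poisson for levels, exact conditional for ratios and Clopper-Pearson for shares, all at 95% and for counting error only. The ratio step was tested on simulated data. Ratios within states need at least 100 cells in both libraries. All 9 factors are named. From each list up to 4 measured genes of largest absolute ratio are named, apart from values not reported here, and for each factor the 3 genes most like it by Pearson's r among 4932 genes whose mean reached 20 CPM. Alternatives covered scaling (TMM factors from edgeR 4.0.16, median-of-ratios factors, a total without ribosomal and mitochondrial genes), cell weighting, filters, states and gene minimums.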

Additional observations from a re-analysis of the deposited data

Results flagged for a closer look

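For 5 of the factors the log2 ratio of CD25KO over CD25WT lay above 0 beyond its counting interval in 1 Treg state and below 0 in another. The share of all genes that do so was not counted, so these 5 cannot be set against it. These differences between states were not tested, since each state has 1 library per group. Tcf7 was at 0.68 (0.52 to 0.83) in central-like cells and -0.45 (-0.77 to -0.11) in effector-like cells. Within the latter it was -1.02 in cluster 8, on 32 UMIs of 54 CD25WT cells, and -0.16 in cluster 9. Lef1 was at 0.52 (0.19 to 0.87) in follicular regulatory-like cells and -0.35 (-0.55 to -0.14) in interferon-response-like cells. Bach2 was at 0.42 (0.14 to 0.68) in central-like cells and -1.28 (-1.70 to -0.86) in cluster 10, though in thinned central-like cells its interval crossed 0 (0.17, -0.27 to 0.59), and it was -0.37 (all UMIs) in cells taken by UMIs of central markers. Foxp1 was at 0.16 (0.03 to 0.29) in cluster 3, where the median of all genes was 0.12, and -0.78 (-0.90 to -0.66) in cluster 1. Id3 was at 0.54 (0.40 to 0.67) in cluster 1 and -0.64 (-0.85 to -0.43) in cluster 10.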

How the results depend on the processing

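The count of 5 factors at least 1.5-fold lower in CD25KO stayed between 4 and 7 under the alternatives over all T-lineage cells, except that it was 0 when states were given the CD25WT shares and 2 at a 2-fold limit. The 7 were in cells with a Foxp3 UMI, where Foxo1 (-0.60) passed narrowly and Eomes (-1.44) rested on 3 CD25KO and 13 CD25WT UMIs. Of all genes, 280 were lower and 1697 higher there, against 167 and 1063 as reported. The number lower was 141 with equal weight per cell, 362 with TMM factors and 397 without ribosomal and mitochondrial genes. The numbers of genes tested under these settings are not given here. The median log2 ratio of the 9 factors was -0.84 with TMM or median-of-ratios factors, -0.81 without ribosomal and mitochondrial genes, -0.45 with equal weight per cell or with cells thinned to 2000 UMIs, -0.48 with stricter cell filters, -0.53 without cycling-like cells, -0.93 in cells with a Foxp3 UMI and -0.48 with CD25WT cells that have no Il2ra UMI. With states given the CD25WT shares this median was 0.19, or 0.12 above that of all genes, and the ratios of Lef1 (0.27), Satb1 (0.38), Bach2 (0.19) and Sox4 (0.29) reversed. By construction this setting removes the difference in the mix of states, but not in the mix of clusters joined within a state. Central-like cells joined clusters 0 and 6, with 283 and 39 cells in CD25KO and 1903 and 1036 in CD25WT. Effector-like cells joined clusters 8 and 9. How far these mixes bear on the standardised ratios was not tested. The Tcf7 ratio ranged from -0.03 to 0.46 over the alternatives and that of Id3 from -0.27 to 0.05. Leaving out cells whose barcode was in both libraries, thinning the clusters and using all UMIs of the cells taken by markers were chosen after seeing the data. No paired analysis was possible because each group is 1 library. When central cells were taken by UMIs of markers instead of clusters, Lef1, Satb1 and Bach2 were below 0 in place of above, both with thinned UMIs (-0.49, -0.57 and -0.32) and with all UMIs (-0.40, -0.53 and -0.37). Depth limits Eomes and Sox4 within states, where many sums are under 10 UMIs.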

Other observations

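The few cells with both an Eomes and a Sox4 UMI, a set chosen after their values were seen, were 20 in all, 11 in CD25KO and 9 in CD25WT. Of cells with an Eomes UMI, 26.8% in CD25KO and 32.1% in CD25WT had a Sox4 UMI, against 1.23% and 3.81% of the other cells. The 20 cells had a median of 6732 UMIs. Foxp3 had 0 UMIs in them, which allows up to 27.4 CPM (exact Poisson), against 28.2 CPM in the other 12860 T-lineage cells, so a difference was barely detectable at this depth. Cd3e was 824 CPM in them and 781 CPM in the others, and Cd8a had 0 UMIs. Ikzf2, which encodes the Treg factor Helios, was 2040.3 CPM against 1182 CPM. The Treg genes Ctla4 and Il2ra were lower in the 20 cells. Ctla4 was at 51.9 against 136 CPM (log2 ratio -1.39, -2.70 to -0.34) from 7 UMIs. Il2ra was at 14.8 against 79.2 CPM (-2.42, -5.46 to -0.56) from 2 UMIs in 1 cell. Cluster 10 held 7 of the 11 CD25KO and 3 of the 9 CD25WT cells. That whole cluster had Foxp3 at 9.13 CPM in CD25KO and 15.8 in CD25WT, and Il2ra at 62.4 and 111 CPM. The 20 cells were not compared with cluster 10, and the intervals take their UMIs as independent. The cytotoxic gene Nkg7 was 356 CPM against 85.6 CPM. Myb, a progenitor-linked factor, had a UMI in 18 of the 20 and was 415 CPM against 12.9 CPM, and Slamf7 had one in 8 and was 356 CPM against 3.96 CPM. Bach2 was 111 CPM in the 20 cells, from 15 UMIs, and 41.3 CPM in the others.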
